A study of Mus musculus with 415 samples.

Results

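Pax6 and Pax3 encode paired-box transcription factors that pattern the early nervous system, and the chromatin around both genes was examined here in single cells. The members are all rows of an accessibility table that overlap, by at least 1 bp, the Pax6 window on chromosome 2 from 105450000 to 105720000 or the Pax3 window on chromosome 1 from 78070000 to 78230000, on mouse build mm9. This gave 6 regions at Pax6 and 6 at Pax3, or 12 of the 23180 regions of the table. No measured value entered the choice, although the loci were picked with earlier results of these data known.

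Every sample is 1 cell of the mouse embryonic stem cell line R1, and all cells had 1 treatment. Embryoid bodies formed over 48 hours in hanging drops and then spent 4 days in retinoic acid, which the labels put at 0.5 mM. Each cell was tagmented with the Tn5 transposase on a Fluidigm C1 chip, so that sequenced fragments mark open DNA (single-cell ATAC-seq). There was no untreated group and no second culture is named, so the series is 1 sample, and no p-value was computed from cells.

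Pax6 marks neural progenitors of the ventral and intermediate neural tube, the eye field and the cortex. Pax3 marks dorsal neural tube, neural crest and the precursors of limb and trunk muscle. In the neural tube their domains lie next to each other along the dorsoventral axis. Retinoic acid is a standard inducer of neural progenitors from embryonic stem cells. Distal enhancers of Pax6 are known to lie beyond its 3′ end, within introns of the neighbouring gene Elp4, which encodes a subunit of the Elongator complex. In the RefSeq gene table for GRCm38, Pax6 stands between Rcn1 and Elp4, and Pax3 stands between Epha4, an ephrin receptor, and the gene model Gm2102, followed by Sgpp2. No gene annotation on mm9 was used here, so a region is called by its locus and its order along the chromosome, and which region holds a promoter was not determined.

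RefSeq lists start sites for 2 Pax6 promoters on the plus strand, and both sequences are shown because they are the gene's own control elements at the locus the results turn on. They run from 250 bases before a start to 50 after it on GRCm38.p6, a different build from the region coordinates. Promoter 1 lies at chr2:105668646-105668945 and promoter 2 at chr2:105682213-105682512. Capitals mark matches, on either strand, to 6 short motifs: AGGTCA (a nuclear receptor site), TGACGTCA (the cAMP response element), CCAAT (the CCAAT box), TATAAA (the TATA box), TAATTA (a homeodomain core) and GGGCGG (an Sp1 site). The motifs were chosen with the sequences in view.
Pax6 promoter 1: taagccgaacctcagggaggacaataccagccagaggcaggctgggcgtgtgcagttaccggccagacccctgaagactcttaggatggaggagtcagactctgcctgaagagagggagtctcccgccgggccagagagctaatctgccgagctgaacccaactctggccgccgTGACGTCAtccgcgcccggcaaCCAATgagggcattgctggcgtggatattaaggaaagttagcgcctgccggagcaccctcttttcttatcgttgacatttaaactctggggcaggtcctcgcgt
Pax6 promoter 2: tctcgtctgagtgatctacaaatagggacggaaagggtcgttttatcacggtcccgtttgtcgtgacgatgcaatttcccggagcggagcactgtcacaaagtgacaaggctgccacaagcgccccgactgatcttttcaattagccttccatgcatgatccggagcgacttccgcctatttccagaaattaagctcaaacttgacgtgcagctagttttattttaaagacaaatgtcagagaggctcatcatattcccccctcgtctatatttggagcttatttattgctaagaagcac

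Promoter 1 held 1 TGACGTCA and 1 CCAAT, which do not overlap. Among 32851 mouse promoters of the same length, 1.79% held TGACGTCA and 37.4% held CCAAT. Promoter 2 held none of the 6 motifs. AGGTCA was in neither, and 16.3% of all promoters held it. TATAAA was in 13.6%, TAATTA in 5.29% and GGGCGG in 35.7% of all promoters. Promoter 1 had 18 CpG dinucleotides and promoter 2 had 16, where the median promoter had 7. A match is a description of letters and not a bound site.

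The table holds summed bases of signal, and 1 read pair is called 1 fragment here. Any signal above 0 made a region open. Open regions per cell ran from 756 to 12267 with a median of 3928, and in shallow cells many regions without signal were simply not sampled. For this reason ratios for clusters, pairs and both loci were taken over the number expected from depth. That number was fitted over the whole table from each region's total and each cell's total. The expected total of a region thus equals its observed total, and shares of cells are not scaled by depth unless stated. Exact Clopper-Pearson 95% intervals for shares and exact Poisson 95% intervals for counts cover the counting of cells only.

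The 6 Pax6 regions fell in the first part of their window, and the 6 Pax3 regions in the later part of theirs. Pax6 regions 1 and 2 lay 3.67 kb apart at the low end of the window, regions 3, 4 and 5 formed a group after a gap of 58.6 kb, and region 6 lay 28.7 kb further on. Beyond region 6, the last 159.7 kb of the Pax6 window held no row of the table. The table holds only regions open in at least 31 cells, so that rarer regions there were not analysed here. The first Pax3 region lay 68.3 kb into its window, and regions 3 and 4 were 1.51 kb apart. Over consecutive windows of 270 kb across the mouse chromosomes, the median window held 1 region and 12.8% of windows held at least 6. Over windows of 160 kb, the median was 1 region and 4.61% held at least 6. Both loci were thus richer in table regions than most stretches of their length.

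**Figure D1:**
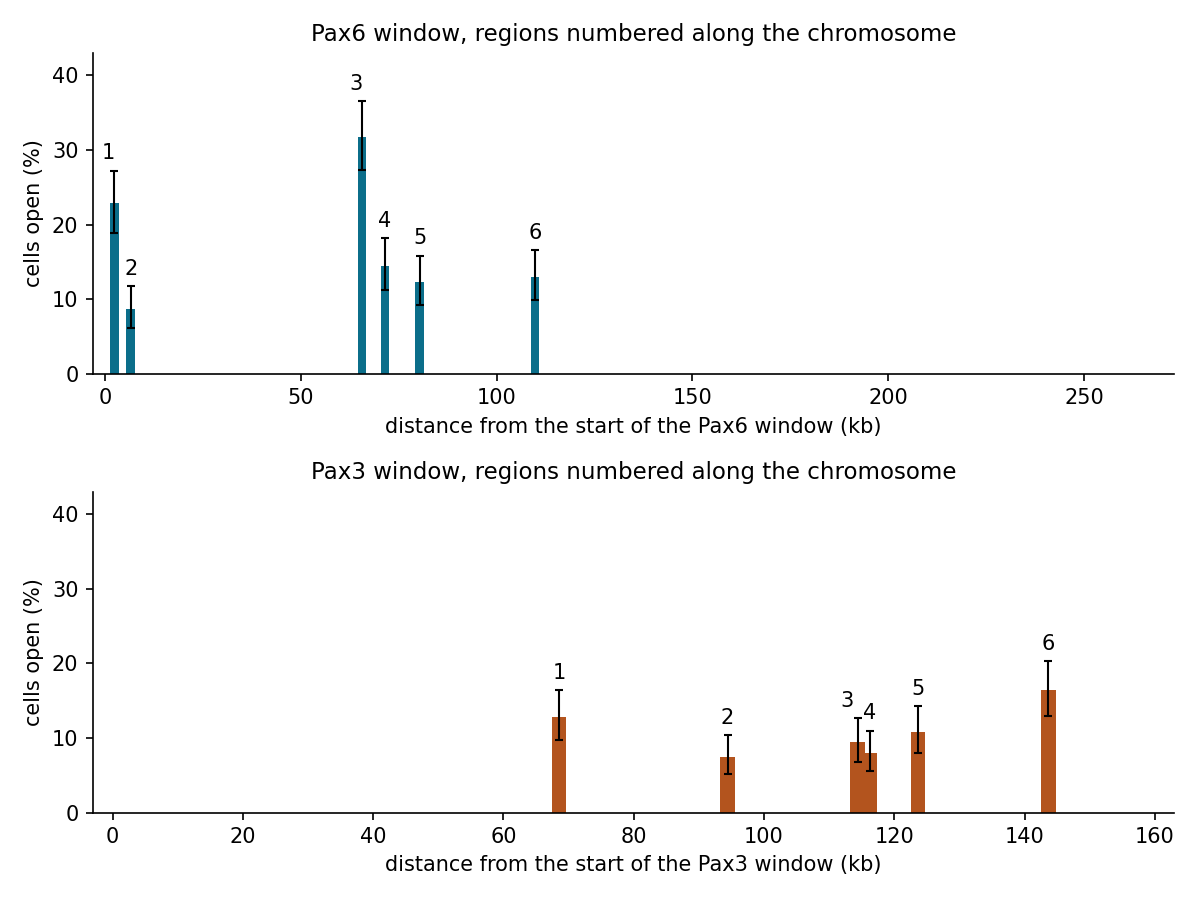
Share of all cells (%, vertical axis, bars with exact 95% intervals) in which each region was open, against distance from the start of the window (kb). Upper panel, Pax6; lower panel, Pax3. Pax6 region 3 is the highest bar at 31.8% and Pax6 region 1 follows at 22.9%, while all 6 Pax3 bars lie between 7.47% and 16.4%; bars are drawn wider than the regions.

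Pax6 region 3 was the most widely open member. It spans 105515367 to 105515910 on chromosome 2 (543 bp) and was open in 31.8% of cells (interval 27.3% to 36.5%). Its signal in those open cells ran from 17 to 636 bases with a median of 1 fragment, and 42 cells had more than 1 fragment. This share was above that of 87.2% of all regions in the table, although the region was narrower than most.

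Pax6 region 1, from 105452160 to 105452758 (598 bp), was open in 95 cells (22.9%, interval 18.9% to 27.2%). Signal in its open cells ran from 42 to 809 bases, the highest value at either locus, with a median of 1 fragment. More than 1 fragment was present in 37.9% of its open cells, the largest such share among the 12 members. The median region of the table had 24.2%.

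The other Pax6 regions were open in about the share of cells that a typical region was, or in fewer. Region 4 (105520782 to 105522209), the widest of the locus at 1427 bp, was open in 60 cells (14.5%, interval 11.2% to 18.2%). Region 6, from 105559289 to 105560337 (1048 bp), was open in 54 cells (13.0%, interval 9.93% to 16.6%). Region 5, from 105530109 to 105530610 (501 bp), was open in 51 cells (12.3%, interval 9.29% to 15.8%). Region 2, at 105456430 to 105456784, was open in 36 cells (8.67%, interval 6.15% to 11.8%). The intervals of regions 4, 5 and 6 overlap, so their order is not established. In these shares, not scaled by depth, region 3 lies above all 5 others and region 1 above regions 2, 4, 5 and 6. The intervals of regions 3 and 1 barely separate, at 27.3% and 27.2%. After cells were thinned to the same depth, region 3 was open in 33 cells (8.64%) and region 1 in 30 (7.85%). The order of regions 3 and 1 at equal depth is therefore not established.

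Pax3 regions had a lower median share than Pax6 regions, but overlapped them. Region 6, from 78212531 to 78214800 on chromosome 1, was the widest member at 2269 bp, wider than 99.5% of all regions. It was open in 68 cells (16.4%, interval 13.0% to 20.3%) with signal from 5 to 787 bases. Region 1, from 78138262 to 78138894 (632 bp), was open in 53 cells (12.8%, interval 9.71% to 16.4%). Pax3 region 5, from 78193256 to 78193995 (739 bp), was open in 45 cells (10.8%, interval 8.02% to 14.2%).

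The remaining 3 Pax3 regions stood near the floor of the table. Region 3, from 78184149 to 78184613 (464 bp), was open in 39 cells (9.40%, interval 6.77% to 12.6%). Region 4, at 78186119 to 78186468, was open in 33 cells (7.95%, interval 5.54% to 10.99%). Region 2, from 78164147 to 78164694 (547 bp), was open in 31 cells (7.47%, interval 5.13% to 10.4%), which is the lowest count that any region of the table has. Only the top and the bottom of the Pax3 order are separated by their intervals, with region 6 above regions 2, 3 and 4.

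Set against the table, the median share was 13.7% over the 6 Pax6 regions, 10.1% over the 6 Pax3 regions and 14.5% over all regions. A share above that median was reached by 2 Pax6 regions and 1 Pax3 region. Pooled over open values, more than 1 fragment was present in 29.9% at Pax6 and 15.6% at Pax3, against 29.5% over the whole table.

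Depth moved every one of these shares. For cells no shallower than the median, at least 1 Pax6 region was open in 79.8% and at least 1 Pax3 region in 58.2%. In the shallower cells, these shares were 40.6% and 27.1%. Over all cells they were 60.2% for Pax6 (250 cells, interval 55.4% to 64.98%) and 42.7% for Pax3 (37.8% to 47.6%). Thinning every cell to 1500 open regions, with 33 cells too shallow to enter, gave 28.01% and 20.2%. Pax6 stayed above Pax3 in all of these.

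The members were then read in 3 clusters of cells. Clustering used only autosomes other than 1 and 2, so that no member and no neighbour of a member on its chromosome took part in it. The number of clusters was set by choice, and 2 and 4 were tried as alternatives. Cluster 1 held 46.9% of the clustered cells, cluster 2 held 27.3% and cluster 3 held 25.8%. Clusters are called by number, since no marker genes could be placed on this build. Median depth differed between them, with 4778 open regions for cluster 2, 3585.5 for cluster 1 and 3690 for cluster 3. Ratios below are therefore shares over depth-expected shares, in a cluster relative to all other cells, and a region was called at a 2-fold ratio.

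Pax6 chromatin was open more often in cluster 2 than in the other cells. At least 1 Pax6 region was open in 96 cells of cluster 2 (84.96%, interval 77.01% to 91%) and in 51.2% of the other cells (45.4% to 56.9%). Scaled by depth, this was a ratio of 1.44 (interval 1.102 to 1.87). It was 1.26 (0.911 to 1.74) in cells no shallower than the median, an interval that includes 1. After thinning all cells to the same depth, the shares were 45.9% in cluster 2 and 20.7% in the other cells. Counted over all 6 regions, open values in cluster 2 stood at 1.49 times those expected from depth. The same ratio was 0.848 in cluster 1 and 0.619 in cluster 3.

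Of the 6 Pax6 regions, 3 were at least 2-fold higher in cluster 2, where 10.3% of the 3351 other regions of chromosomes 1 and 2 were. Region 5 was open in 36 cells of cluster 2 (31.9%, interval 23.4% to 41.3%) and in 15 of the other cells (4.98%, 2.82% to 8.09%), a depth-scaled ratio of 4.84 (2.58 to 9.52). After thinning its ratio was 2.16 (0.646 to 7.21). Region 1 was open in 53 cells of cluster 2 (46.9%, 37.5% to 56.5%) and in 42 of the other cells (13.95%, 10.2% to 18.4%), a ratio of 2.61 (1.71 to 4.01), and 2.47 (1.13 to 5.45) after thinning. The order of regions 5 and 1 is therefore not established. With more than 1 fragment, cells were clustered anew, and the ratios of regions 5 and 1 were 6.07 and 6.81. The cluster matched to cluster 2 there shared 0.474 of their joint cells with it. Region 6 was open in 27 cells of cluster 2 (23.9%) and in 27 of the other cells (8.97%), a ratio of 2.02 (1.14 to 3.58), which is close to the threshold and was 1.34 without the lowest of 4 sets of sample title numbers.

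The most widely open Pax6 region, region 3, had the lowest cluster 2 ratio of the 6 over all cells. It was open in 43.4% of cluster 2 (interval 34.1% to 53.01%) and 27.6% of the other cells (22.6% to 32.99%), a ratio of 1.25 with an interval of 0.857 to 1.795. Region 4 had a ratio of 1.66 (0.959 to 2.84) and region 2 a ratio of 1.601 (0.776 to 3.25). The median over the 6 regions was 1.84, where the other regions of both chromosomes had a median of 0.982. Regions 2 and 3 each had a ratio interval that includes 1 in every cluster. Regions 5 and 1 were open more often in cluster 2 than in the other cells. Region 1 was still open in 15.5% of cluster 1 and 11.2% of cluster 3, in shares not scaled by depth.

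**Figure D2:**
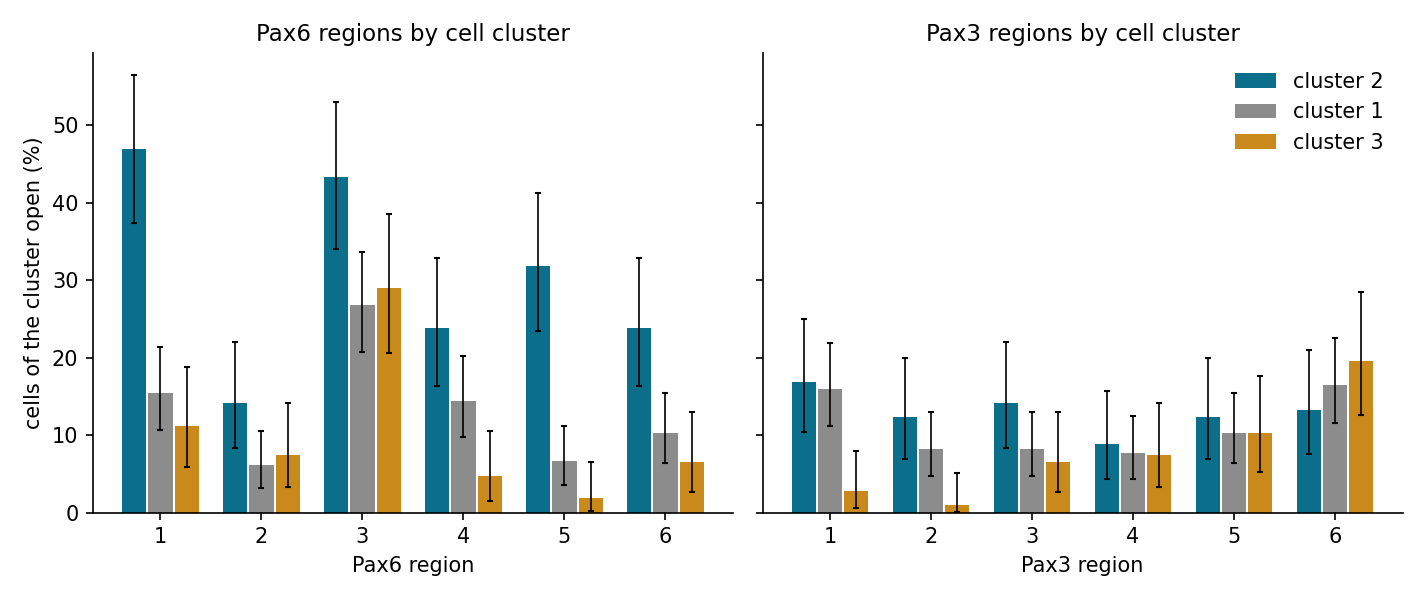
Share of the cells of each cluster (%, vertical axis, bars with exact 95% intervals) in which each Pax6 region (left) and Pax3 region (right) was open. Cluster 2 is drawn first, then clusters 1 and 3. Pax6 regions 1 and 5 reach 46.9% and 31.9% in cluster 2, while the bars of Pax3 lie close together except in cluster 3.

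Cluster 3 was the group with the fewest open Pax6 regions. Of the 6, 4 were at least 2-fold lower there, where 25.9% of the other regions of chromosomes 1 and 2 were. Region 5 was open in 2 cells of cluster 3 (1.87%, interval 0.227% to 6.59%) and in 49 of the other cells (15.96%), a ratio of 0.127 (0.0150 to 0.485). Region 4 was open in 5 cells of cluster 3 (4.67%) and in 55 of the other cells (17.9%), a ratio of 0.282 (0.0882 to 0.6998). Regions 1 and 6 had ratios of 0.443 and 0.464, and the interval of region 6 reached 1.03. Regions 2 and 3 were exceptions. Region 2 had a ratio of 0.895 (0.353 to 2.02). Region 3 was open in 28.97% of cluster 3 and 32.9% of the other cells, with a ratio of 0.928 (0.599 to 1.399).

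In cluster 1, 1 Pax6 region was at least 2-fold lower (background 11.3%) and none was at least 2-fold higher (background 7.94%). That was region 5, open in 6.70% of cluster 1 and 17.3% of the other cells, a ratio of 0.462 (interval 0.226 to 0.886).

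Pax3 did not follow the same division. At least 1 Pax3 region was open in 55 cells of cluster 2 (48.7%, interval 39.2% to 58.3%) and in 40.5% of the other cells (34.9% to 46.3%), a depth-scaled ratio of 0.988 (0.705 to 1.37). No Pax3 region was at least 2-fold higher in cluster 2 (background 10.3%) or 2-fold lower (background 9.13%), and the median ratio over the 6 was 1.02. After thinning, the shares were 21.6% in cluster 2 and 19.6% in the other cells. The difference between the ratios of both loci was not tested, as there is 1 sample.

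Within Pax3, regions 1 and 2 were the 2 of 6 at least 2-fold lower in cluster 3, against the background of 25.9%. With a whole fragment required, 4 Pax3 and 3 Pax6 regions were 2-fold lower there, and with more than 1 fragment 4 of each. For these definitions the cells were clustered anew and no background share was computed. The counts also rest on few cells, as more than 1 fragment was present in 3 cells at Pax3 region 3 and in 3 at region 4. Region 1 was open in 3 cells of cluster 3 (2.80%, interval 0.582% to 7.98%) and in 50 of the other cells (16.3%, 12.3% to 20.9%), a ratio of 0.187 (0.0373 to 0.578). Region 2 was open in 1 cell of cluster 3 (0.935%) and in 30 of the other cells (9.77%), a ratio of 0.105 (0.00257 to 0.630). Both are at the low end of the chromosome order of the locus. Region 6, at the other end, had a ratio of 1.38 (0.786 to 2.36) in cluster 3 and of 0.576 (0.302 to 1.04) in cluster 2. Region 1 was the Pax3 region with the highest ratio in cluster 1, at 1.90 (1.07 to 3.45), below the 2-fold threshold.

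The score of a locus in a cell was taken as its open regions minus those expected from depth, over the expected standard deviation. The Pax6 score had a median of 0.459 in cluster 2, with a range of -1.56 to 4.24. Its median was -0.484 in cluster 1 (-1.79 to 2.85) and -0.718 in cluster 3 (-1.68 to 2.61). The ranges overlap widely, so that single cells cannot be assigned by this score. The Pax3 score had medians of -0.484 in cluster 2, -0.413 in cluster 1 and -0.618 in cluster 3.

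**Figure D3:**
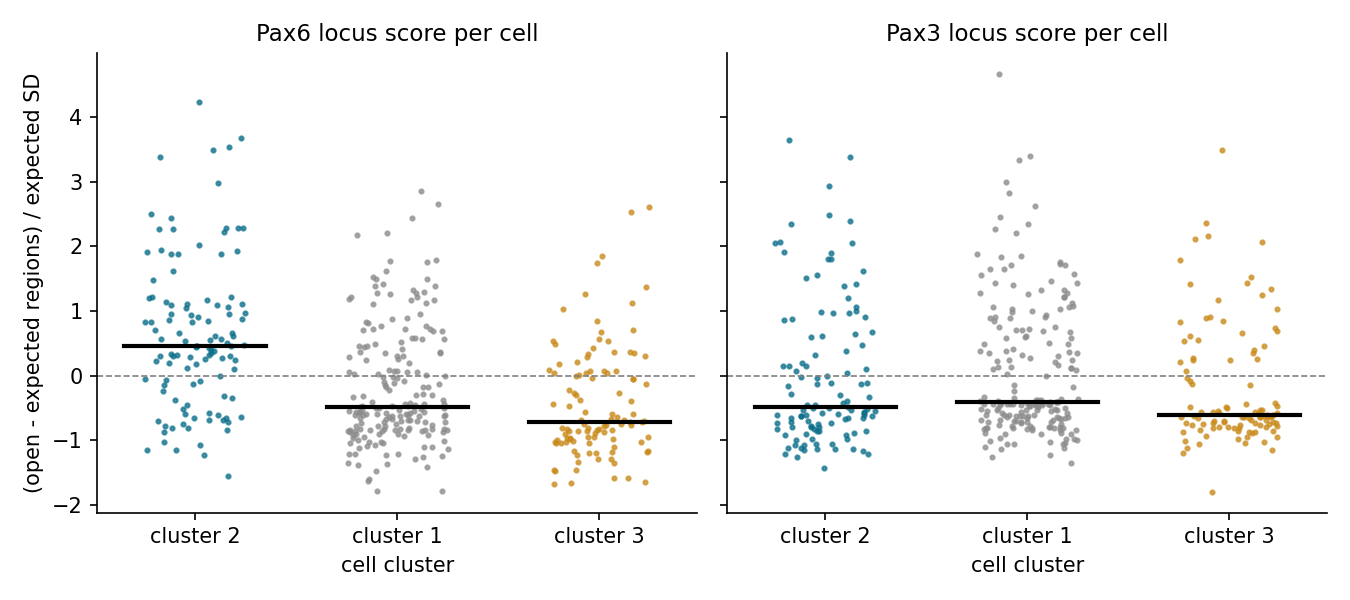
Locus score of each cell (open regions minus expected, over the expected standard deviation; vertical axis) for Pax6 (left) and Pax3 (right), by cluster. Each point is 1 cell and the black line is the median; for Pax6 the median is 0.459 in cluster 2, above the dashed line at 0, and below it in clusters 1 and 3.

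Cells with most of the Pax6 regions open at once were more frequent than depth gave. At least 5 of the 6 regions were open in 9 cells, where 1.80 were expected, and all 6 were open in 2 cells, where 0.161 were expected. All 9 belonged to cluster 2, where 0.813 were expected. At least 3 regions were open in 42 cells, where 39.6 were expected, and at least 4 in 16 cells, where 10.2 were. Of these 16 cells, 14 were in cluster 2 (4.42 expected), 1 in cluster 1 (3.95) and 1 in cluster 3 (1.81). These 16 cells were deep, with a median of 7981 open regions. The expected numbers rest on region rates over all cells, while open values in cluster 2 stood at 1.49 times those expected. Numbers expected from the rates of cluster 2 itself were not computed.

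No cell had more than 4 Pax3 regions open. That number was reached in 3 cells, with 2.36 expected, and 18 cells had 3 open with 11.9 expected. The variance of the score over cells was 1.13 for Pax6 and 1.11 for Pax3. With the cell rate taken from the locus's own chromosome, it was 1.04 and 1.06.

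**Figure D4:**
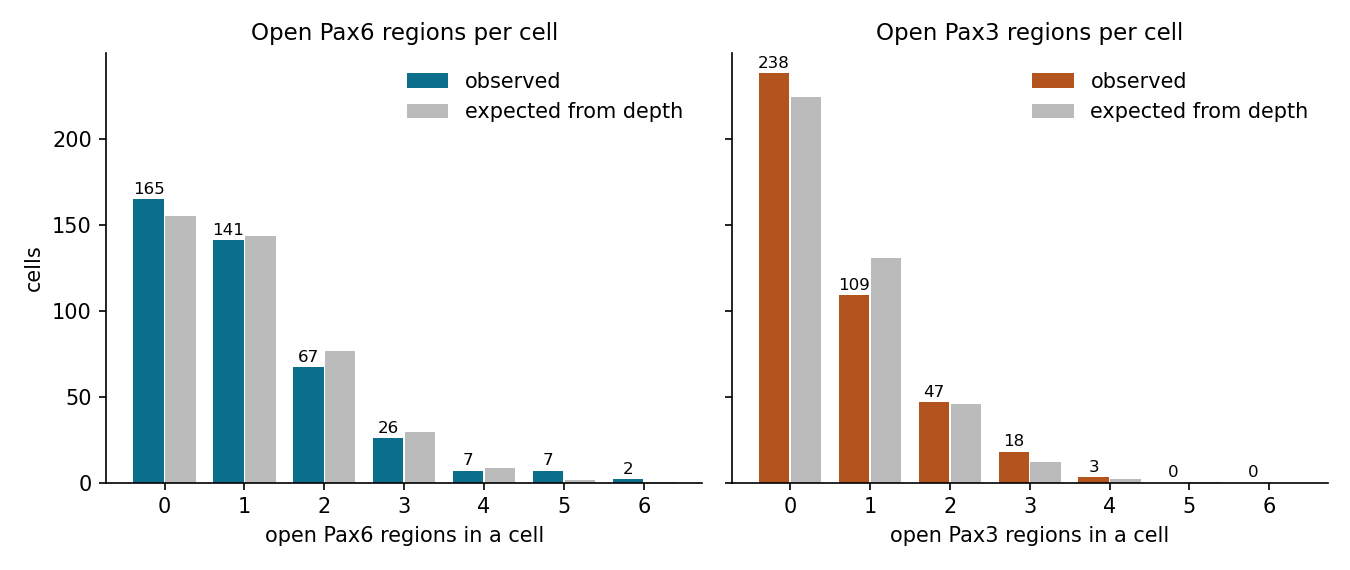
Number of cells (vertical axis) by the number of regions of a locus open in the cell, observed (coloured, with the count above) and expected from depth (grey). At Pax6 (left), 7 cells had 5 open regions and 2 had all 6; at Pax3 (right), no cell had more than 4.

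Pairs of regions within a locus were compared by the number of cells open at both, over the number expected from depth. A pair was called at a ratio of at least 1.5 with at least 5 expected cells. At Pax6, all 15 pairs had enough expected cells, 2 were called and 13 had a ratio above 1. The median ratio was 1.18. Over the 104817 such pairs on any chromosome no farther apart than the Pax6 window, 5.52% were called, 60.1% had a ratio above 1 and the median was 1.05.

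Both called Pax6 pairs included region 5. Regions 1 and 5, 77.4 kb apart, were open together in 28 cells where 15.7 were expected, a ratio of 1.79 (interval 1.19 to 2.58). Regions 5 and 6, 28.7 kb apart, were open together in 16 cells where 9.15 were expected, a ratio of 1.75 (0.9991 to 2.84). The next 3 pairs were regions 4 and 6 with a ratio of 1.401, regions 3 and 4 with 1.37 and regions 2 and 5 with 1.30, and the interval of each includes 1. Distance did not order them, since the close neighbours 1 and 2 had a ratio of 1.08 and regions 4 and 5, 7.90 kb apart, 1.18. The lowest pair was regions 2 and 4 at 0.831. No Pax6 pair was called when open meant more than 1 fragment, or in cells no shallower than the median. Regions 1 and 5 then had a ratio of 2.396 (0.963 to 4.94) with more than 1 fragment, where fewer than 5 cells were expected, and of 1.47 (0.953 to 2.17) in the deeper cells.

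When region rates were refitted inside each cluster, so that cells were compared only with cells of their own cluster, the Pax6 pairs lay near their expectation. None of the 15 pairs was then called and the median ratio was 1.01. Regions 1 and 5 had 28 cells open at both where 23.5 were expected, a ratio of 1.19 (interval 0.792 to 1.72). Of these 28 cells, 22 were in cluster 2, where 20.3 were expected. This comparison was chosen after the ratios over all cells had been seen.

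At Pax3, 11 of the 15 pairs had at least 5 expected cells, and 2 of these were called, where 6.03% of the 65195 pairs within 160 kb were. Regions 4 and 5, 6.79 kb apart, were open together in 8 cells where 5.02 were expected, a ratio of 1.59 (interval 0.688 to 3.14). Regions 5 and 6, 18.5 kb apart, were open together in 16 cells where 10.1 were expected, a ratio of 1.58 (0.904 to 2.57). Both intervals include 1. The next 3 ratios were 1.30 for regions 1 and 3, 1.20 for regions 4 and 6 and 1.13 for regions 1 and 5. The median of the 11 pairs was 1.096, and 1.05 over all such pairs. Inside clusters, regions 5 and 6 had a ratio of 1.62 (0.927 to 2.63) and were the 1 pair still called. Regions 4 and 5 had a ratio of 1.61 there but 4.98 expected cells, under the minimum.

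**Figure D5:**
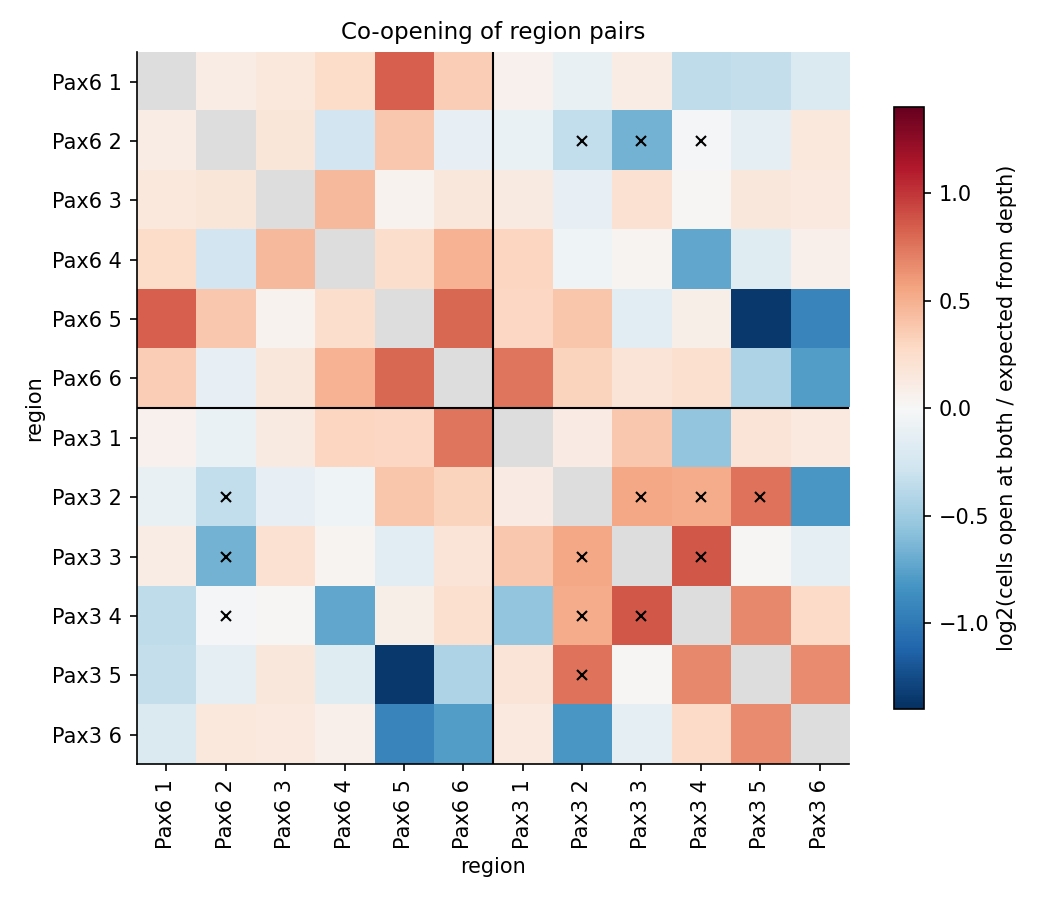
Co-opening of every pair of the 12 regions as log2 of the cells open at both over the number expected from depth (colour scale), with Pax6 regions first. Black lines separate the loci, grey marks the diagonal and crosses mark pairs with under 5 expected cells. The strongest red cells within Pax6 are regions 1 and 5 and regions 5 and 6, and the deepest blue cell between the loci is Pax6 region 5 with Pax3 region 5.

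Between the loci, co-opening stayed near what depth gave. At least 1 region of each locus was open in 29.2% of cells, and the ratio to the number expected was 0.887 (interval 0.736 to 1.06). Unscaled, Pax6 was open in 68.4% of the cells with an open Pax3 region and 54.2% of those without. The cells with an open Pax3 region had a median of 5109 open regions and those without 3175. Among cells no shallower than the median, the shares were 80.2% and 79.3%. Across all cells, which share 1 culture, the scores of both loci had a Pearson r of -0.0517 and a Spearman rho of -0.0488.

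By cluster, the ratio of cells open at both loci was 1.04 (interval 0.766 to 1.38) in cluster 2, 0.929 (0.696 to 1.21) in cluster 1 and 0.605 (0.369 to 0.934) in cluster 3. The Pearson r and Spearman rho of both scores were -0.184 and -0.205 in cluster 2, -0.0627 and -0.0916 in cluster 1, and 0.0964 and 0.140 in cluster 3. In cluster 3, 20 cells were open at both where 33.1 were expected from the rates over all cells. The depth-scaled ratio of cells with at least 1 open region in that cluster was 0.683 (0.488 to 0.940) for Pax6. For Pax3 it was 0.780 (0.528 to 1.13), an interval that includes 1. The number expected at both loci does not account for these ratios. Exclusion between the loci was not tested.

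Of the 36 pairs between the loci, 33 had at least 5 expected cells, and 1 was called, where 3.78% of the 2544444 pairs of a chromosome 1 and a chromosome 2 region were. The called pair was Pax6 region 6 with Pax3 region 1, open together in 16 cells where 9.501 were expected, a ratio of 1.68 (interval 0.963 to 2.73). The next were Pax6 region 5 with Pax3 region 2 at 1.31, Pax6 region 6 with Pax3 region 2 at 1.24, and Pax6 regions 4 and 5 with Pax3 region 1 at 1.24 and 1.22. Ratios above 1 numbered 18 of 33, with a median of 1.02. Over all such pairs of the 2 chromosomes, 50.05% had a ratio above 1 and the median was 1. The lowest ratio, chosen after its value was seen, was that of Pax6 region 5 with Pax3 region 5, open together in 3 cells where 7.67 were expected (0.391, interval 0.0806 to 1.14). It was followed by Pax6 region 5 with Pax3 region 6 at 0.525 (0.193 to 1.14).

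Along chromosome 2, likeness to the Pax6 score was weak outside the window and had no steady order with distance. The correlation over cells between a region's depth-corrected value and the Pax6 score had a mean of 0.0351 for the 4 regions within 100 kb of the window, of which 2 were positive, and a median of 0.00364. It was 0.0498 for 9 regions at 100 to 500 kb and 0.0613 for 18 at 500 to 1000 kb. For 68 regions at 1000 to 5000 kb the mean was 0.0292, for 1789 regions farther away 0.0188, and for the 21286 regions on other chromosomes -0.00111. The nearest row outside the window, from 105744255 to 105745104 and open in 33.5% of cells, had an r of -0.0611. The row from 105814013 to 105814735, open in 7.95% of cells, had 0.217 and carries the mean of the nearest 4. Around Pax3, 15 regions within 1000 kb of the window had r of at most 0.0893.

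Over the genome, 0.539% of the 23174 regions outside the window had an r of at least 0.2 to the Pax6 score. For the Pax3 score 6 regions had one, or 0.0259%. The 5 regions most like Pax6 at least 1 Mb away were all most often open in cluster 2, in shares not scaled by depth. Cluster 2 is both the deepest cluster and the one with the highest Pax6 score, which chose these regions. The first, on chromosome 5 from 75394990 to 75395714, had an r of 0.294 and was open in 40.7% of cluster 2, 9.28% of cluster 1 and 3.74% of cluster 3. It was open in 24.4% of the cells with an open Pax6 region (interval 19.2% to 30.2%) and 4.24% of those without (1.72% to 8.55%). Those with an open Pax6 region had a median of 4720 open regions and those without 2703, a difference that r corrects for and these shares do not.

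The second, on chromosome 18 from 16828530 to 16828957, had an r of 0.286 and was open in 33 cells with an open Pax6 region and in 1 cell without. The others lay on chromosome 11, from 67964075 to 67964938 (r 0.273), chromosome 19 from 12569673 to 12570095 (r 0.268) and chromosome 8 from 118753501 to 118754065 (r 0.267). Their r to the Pax3 score lay between -0.0210 and 0.103, with the chromosome 5 region at 0.0752.

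Of the 5 regions most like Pax3, 4 were also most often open in cluster 2 and 1 in cluster 1, in shares not scaled by depth. The first, on chromosome 12 from 82099643 to 82100187, had an r of 0.268 and was open in 11.5% of cluster 2, 8.76% of cluster 1 and 2.80% of cluster 3. Those on chromosome 8 from 55864710 to 55866150 and from 63829294 to 63829538 had an r of 0.231 and 0.227. The second of these was open in 19.6% of cluster 1 and 4.42% of cluster 2. The fourth, on chromosome 17 at 49820669 to 49821332, and the fifth, on chromosome 3 at 66129481 to 66130417, both had an r of 0.222 and were each open in 32.7% of cluster 2. As the highest of many, these values lean high, and correlations over sparse cells are given as descriptions.

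Sample titles number the cells without saying what the numbers stand for, and 4 consecutive sets of numbers were compared. From the lowest set to the highest, at least 1 Pax6 region was open in 55.8%, 56.7%, 67.3% and 61.2% of cells, and at least 1 Pax3 region in 43.3%, 38.5%, 43.3% and 45.6%. Cluster 3 made up 36.5%, 38.8%, 14.4% and 13.6% of these sets. Within each set, the depth-scaled Pax6 ratio of cluster 2 over the other cells was above 1. It was 1.51 (interval 0.854 to 2.63), 1.68 (0.942 to 2.92), 1.17 (0.692 to 1.94) and 1.47 (0.849 to 2.50), and each interval includes 1. The ratio of region 5 in cluster 2 was 8.80, 9.74, 2.59 and 4.77 in these sets, and that of region 1 was 4.31, 4.35, 1.25 and 2.31. The cluster 2 ratios of both regions were thus lowest in the third set.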

How the data were processed

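The deposited table holds signal for 23180 regions in 415 cells, each sample being 1 cell. Per the submitters' processing notes, the build is mm9 and MACS2 was used. Neither the aligner nor duplicate removal, nor how regions were selected, is given in the sources used here. The values are whole numbers, of which 37.6% of those above 0 equal 148 and 51.1% are multiples of 74, the pattern of bases summed over pairs of 74-base reads. This unit was read from the deposited signal, since counts had been one possibility when the comparisons were designed. Openness was modelled as 1 − exp(−region rate × cell rate), fitted over all regions. The code was checked on data simulated from this same model, which cannot show how well the model describes these cells. Cells with at least 1000 fragments (414) were clustered on 19318 regions of autosomes other than 1 and 2, after TF-IDF weighting (scale 10000), on singular value components 2 to 10 and k-means with 50 starts, in Python 3.11.15 with scikit-learn 1.9.0, NumPy 2.4.6 and SciPy 1.17.1. Clusters 1, 2 and 3 held 194, 113 and 107 cells. Depth ran from 791 to 25069 fragments of 148 bases per cell. Intervals cover counting error only. The members and comparisons were chosen with earlier results of these data known. Described singly were, per locus, the 5 most and 3 least open regions, the 5 highest ratios among pairs with at least 5 expected cells (also between the loci) and the 5 regions most like it. Promoter sequences are from RefSeq on GRCm38.p6, where Pax6 was matched. Alternatives were another definition of open, deeper or thinned cells, title sets left out, other windows, a per-chromosome depth term, other clusterings, no pair minimum and, added after seeing the data, region rates refitted within clusters.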

Additional observations from a re-analysis of the deposited data

How the results depend on the processing

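The cluster 2 ratio of Pax6 stayed above 1 under each alternative in which it was computed, which leaves out the per-chromosome depth term, while counts of called pairs did not hold. At least 1 region was open in 43.4% (Pax6) and 28.7% (Pax3) of cells when a whole fragment was required, 24.1% and 9.88% with more than 1 fragment, 79.8% and 58.2% in cells at or above the median depth, and 28.01% and 20.2% after thinning to 1500 open regions. Windows 50 kb wider gave 71.3% for Pax6, and regions of at least 500 bp inside the windows 35.7% for Pax3. Called pairs within Pax6, 2 in the report, were 0 with more than 1 fragment, 0 in the deeper cells, 0 after thinning and 0 with rates refitted inside clusters. Within Pax3, also 2, they were 0 with a whole fragment, 0 with more than 1 fragment, 0 in the deeper cells, 0 after thinning, 1 with regions of at least 500 bp, 1 inside clusters and 4 with no minimum of expected cells. Between the loci, 1 pair became 0 with a whole fragment, 0 with more than 1 fragment, 0 after thinning and 0 inside clusters. After thinning no pair reached 5 expected cells within a locus, and with more than 1 fragment Pax6 regions 1 and 5 did not (ratio 2.396). For the others the cause was not tested. Cells open at both loci over expected, 0.887 in the report, were 1.16 with more than 1 fragment and 1.09 after thinning. The depth-scaled cluster 2 ratio of Pax6, 1.44 in the report, was 2.44 with more than 1 fragment and 2.04 after thinning. It was lower, with intervals that include 1, in the deeper cells (1.26, 0.911 to 1.74), with wider windows (1.19, 0.929 to 1.53) and with the first component kept (1.20, 0.931 to 1.56). That of Pax3 was 0.638 with more than 1 fragment. Pax3 regions at least 2-fold higher in cluster 2, 0 in the report, were 1 with more than 1 fragment, 1 after thinning and 2 with 2 clusters. Cells were clustered anew under each definition of open. With more than 1 fragment, the cluster matched to cluster 2 shared 0.474 of their joint cells with it. With 2 clusters or the first component kept, this share was 0.362 and 0.346. All of these are other groupings. The ratio of Pax6 region 1 in cluster 2 was 2.47 with 2 clusters and 1.41 with the first component kept. That of region 5 was 2.16 after thinning. With more than 1 fragment region 1 reached 6.81 and region 5 6.07. Pax3 regions at least 2-fold lower in cluster 3, 2 in the report, were 4 with a whole fragment and 4 with more than 1 fragment. Background shares were computed only for the clusters of the report, with any signal above 0 as open.

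Leaving out each set of title numbers in turn gave 57.9% to 61.7% of cells open at Pax6 and 41.7% to 44.1% at Pax3, 1 to 3 called pairs within Pax6 (1 without the lowest set), 0 to 2 within Pax3 (0 without the second set, 1 without the lowest or the highest) and 1 to 2 between the loci (2 without the second or the third). Without these sets, the cluster 2 ratio was 1.38 to 1.52 for Pax6 and 0.916 to 1.05 for Pax3, with 2 to 3 Pax6 and 0 to 1 Pax3 regions at least 2-fold higher. Cells open at both loci over expected ranged from 0.863 to 0.933, r of the scores from -0.0843 to -0.0243, and score variances from 1.07 to 1.17 (Pax6) and 1.08 to 1.16 (Pax3). The ratio of Pax6 region 6 in cluster 2 fell to 1.34 without the lowest set, and Pax6 regions at least 2-fold lower in cluster 3 numbered 2 without it. Pax3 region 2, at 31 cells, sits at the table's floor. No paired analysis was possible because there is 1 group of cells.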
